A study of Mus musculus with 6 samples.

Results

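The Hox genes are the 39 mouse genes that carry a protein-coding symbol of the form Hoxa, Hoxb, Hoxc or Hoxd followed by a paralogue number. They were selected by matching the gene identifiers of the table to GENCODE symbols, and all 39 had a row among the 56953 genes. The libraries came from mouse embryonic fibroblasts (MEFs), connective tissue cells grown from mouse embryos, of which 3 are labelled WT and 3 are labelled GαqKO. The study describes the second line as lacking both Gαq and Gα11, the alpha subunits that couple receptors to phospholipase C beta, and calls it GαqKO for short. Both lines were grown in DMEM with 10% fetal bovine serum, with no other treatment, and the age and strain of the embryos are not given in the sources used here. Each genotype is 1 line with 3 biological replicates per the study's methods, so genotype and line cannot be told apart, and p-values measure the spread between cultures of a line.

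Hox genes encode homeodomain transcription factors and lie in 4 clusters, in which every gene is transcribed in the same direction. Genes at the 3′ end of a cluster are switched on first and pattern the hindbrain and neck, and genes towards the 5′ end pattern the trunk, the limbs and the tail. Genes with the same number in different clusters are paralogues, descended from a common ancestor before the clusters were duplicated. Fibroblasts keep much of this pattern in culture, so that their Hox transcripts are known as a record of the body position from which they were taken. Polycomb complexes hold Hox genes silent through methylation of histone H3 at lysine 27, Trithorax complexes keep them active, and the TALE homeodomain proteins (Pbx, Meis and Pknox) bind DNA together with Hox proteins.

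On GRCm39 the Hoxa cluster holds 11 genes at chr6:52132570-52237822 on the minus strand. The Hoxb cluster holds 10 genes at chr11:96085106-96259082, the Hoxc cluster 9 genes at chr15:102829538-102945278 and the Hoxd cluster 9 genes at chr2:74498654-74595486, these 3 on the plus strand. Values are normalized counts, which are reads per gene divided by 1 size factor for each library, and they summed to between 11392429 and 11483486 per library. In the 5 libraries where whole reads could be recovered, between 9853000 and 12229175 reads lay on genes, so that a value of 0 allows up to 3 reads (0.245 to 0.304 CPM). Tests were made with limma on log2(normalized count + 1) over 14096 genes, those that reached 10 normalized counts in 3 or more libraries. A gene was called when its adjusted p was under 0.05 and its log2 fold change over 1 or under -1, and fold changes on this scale understate the change of genes with low counts. Shares of a list are over all of its members, tested or not, and shares of all genes are over the genes tested.

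The labels were first checked on the targeted genes. Gna11, which encodes Gα11, stood at 2140.6, 2179.9 and 2123.2 normalized counts in WT and at 472.3, 463.7 and 418.9 in the libraries labelled GαqKO (log2 fold change -2.25, SE 0.057, limma adjusted p = 9.16e-13). Gnaq, which encodes Gαq, stood at 1665.5, 1660.2 and 1746.6 in WT and at 1959.7, 1930.9 and 1888.2 in the libraries labelled GαqKO, where it was therefore not lower (log2 fold change 0.19, 95% confidence interval 0.09 to 0.28). The part of Gnaq removed in this line is not given in the sources used here, so a gene-level value does not check that label, and the directions below rest on the labels. The 2 lines also differed at the Y chromosome, where the 7 tested genes had a median log2 fold change of -8.21 in the libraries labelled GαqKO. Expression differences that belong to the sex or origin of the line cannot be told apart from those of the genotype.

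Of the 39 Hox genes, 9 were lower in the libraries labelled GαqKO past both thresholds and 0 were higher. The 9 genes were Hoxa7, Hoxa9, Hoxa10, Hoxb7, Hoxb8, Hoxb9, Hoxb13, Hoxc4 and Hoxc13. They make up 23.1% of all 39 members, tested or not, and 9 of the 13 tested. Of the genes tested across the genome, 10.5% were lower and 10.2% were higher. Only 13 members had enough counts for a test, 17 were listed at 0 in all 6 libraries, and 9 had values above 0 that were too low. Of the 13 tested, 3 entered the test through their WT values while at least 1 library labelled GαqKO was under 10 (Hoxa7, Hoxc4 and Hoxc13). At the adjusted p alone 10 members were lower, the added gene being Hoxb4, against 34.1% of all tested genes lower and 31.8% higher, and 3 members did not pass. The median log2 fold change over all tested genes was -0.01. The same 9 members were lower by limma's treat test against the fold threshold, which called 7.29% of genes lower and 6.01% higher. They were also lower in recovered reads of 5 libraries by edgeR, where 10.9% of genes were lower and 10.0% higher, and by DESeq2, where 8.50% were lower and 7.54% higher.

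**Figure D1:**
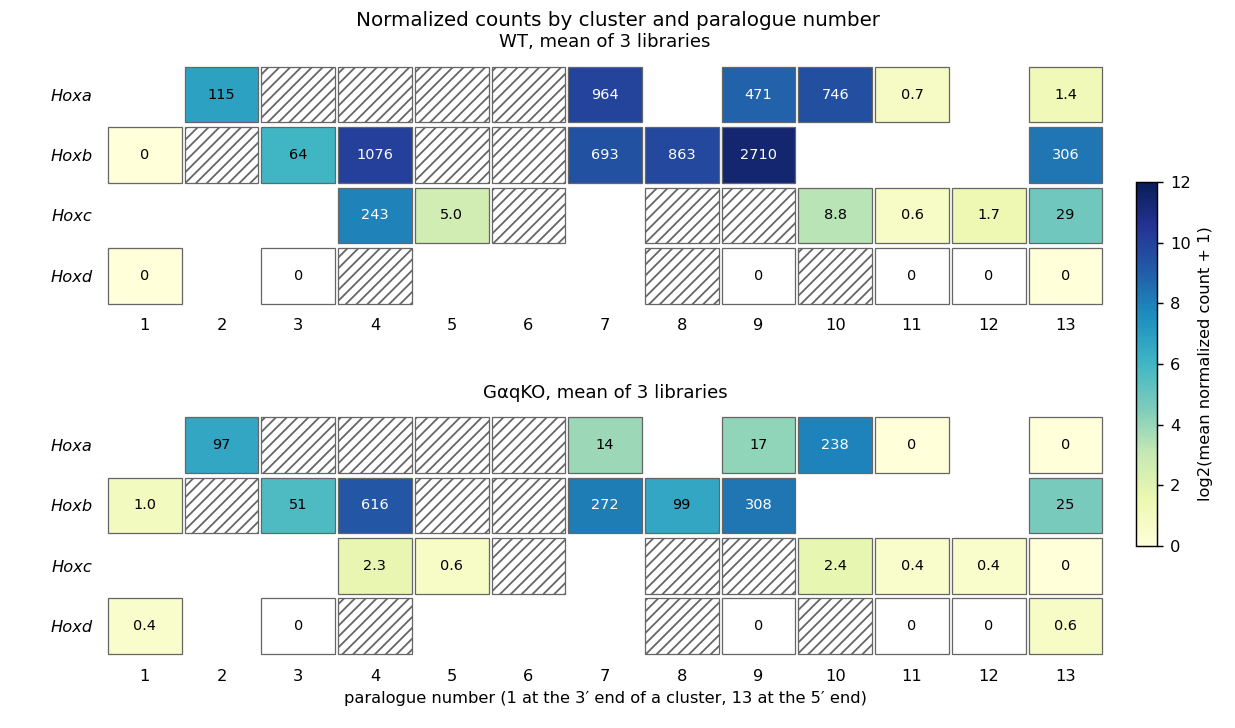
Mean normalized counts of Hox genes in WT (top) and in the libraries labelled GαqKO (bottom), with clusters as rows, paralogue numbers as columns and colour for log2(mean + 1). White boxes are genes listed at 0 in all 6 libraries, hatched where all exons lie inside the span of other genes, and gaps are places where no gene is shown. Hoxb9 is the highest at 2710.2 in WT and stands at 308.1 in the libraries labelled GαqKO.

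Before the levels are read, the zeros need their place in the annotation. In GENCODE release 39, 15 members have all of their exons inside the span of another gene, and 13 of these were listed at 0. They comprise Hoxa3, Hoxa4, Hoxa5 and Hoxa6, which lie inside the long gene models Gm28308, Hoxa3 or Hoxaas3, and Hoxb2, Hoxb5 and Hoxb6, which lie inside the antisense genes Hoxb3os and Hoxb5os. They also comprise Hoxc6, Hoxc8 and Hoxc9 inside Hoxc5, and Hoxd4, Hoxd8 and Hoxd10 inside Hoxd3, Hoxd3os1 and Gm74919. The 2 exceptions were Hoxb7 and Hoxb8, which lie inside Hoxb5os in this release and were well above 10 normalized counts in all 6 libraries. Of the 24 members whose exons were not all inside other genes, 4 were listed at 0 (Hoxd3, Hoxd9, Hoxd11 and Hoxd12). Among the 11 members whose exons lay inside no other gene, 2 were at 0 (Hoxd9 and Hoxd12). The authors counted on release 32, which was not used here, and their rule for reads that fall on overlapping genes is not given in the sources used here. A member listed at 0 inside another gene's span is therefore reported as listed at 0, and not as absent from the cells.

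The anterior members carry the paralogue numbers 1 to 4, and except for Hoxc4 those that were tested had log2 fold changes between -0.81 and -0.24. Hoxa2, the selector of second pharyngeal arch identity, stood at 118.0, 123.4 and 103.8 normalized counts in WT and at 102.4, 87.9 and 100.7 in the libraries labelled GαqKO. The groups did not overlap, but the difference of -0.24 did not pass the test (95% confidence interval -0.55 to 0.06, limma adjusted p = 0.145). Hoxb3, another gene of the hindbrain and pharyngeal arches, overlapped between groups, with 64.7, 50.5 and 78.4 against 52.6, 55.5 and 45.3 (log2 fold change -0.31, interval -0.76 to 0.13, adjusted p = 0.195). Over its exons, 51.5% of the bases of Hoxb3 are shared with exons of other genes. The lowest bound of these 2 intervals was -0.76, and a p that misses the threshold does not show that the levels were equal.

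Hoxb4, which is known for expanding blood stem cells when it is overexpressed, stood at 1090.1, 1089.9 and 1048.4 normalized counts in WT. In the libraries labelled GαqKO it stood at 576.6, 657.9 and 612.3, below every WT library, at 57.2% of the WT mean (log2 fold change -0.81, SE 0.06, adjusted p = 4.87e-08). It passed the adjusted p and not the fold threshold. Its paralogue Hoxc4 (ENSMUSG00000075394.5, chr15:102927366-102945278), a gene of the neck vertebrae, differed far more. Hoxc4 stood at 255.8, 260.3 and 211.7 in WT and at 2.8, 1.2 and 3.0 in the libraries labelled GαqKO (log2 fold change -6.24, SE 0.291, adjusted p = 3.37e-10). In recovered reads, 721 lay on Hoxc4 in the 3 WT libraries and 4 in the 2 libraries labelled GαqKO that could be counted. That is 0.854% of the WT level after depth is taken into account, with an exact 95% interval of 0.232% to 2.2% for counting error only. The intervals of the 2 paralogues, -0.94 to -0.68 for Hoxb4 and -6.87 to -5.61 for Hoxc4, lie far apart.

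The central members, numbered 5 to 8, could be followed through Hoxa7, Hoxb7 and Hoxb8, because 7 of the 11 were listed at 0. Hoxa7 (ENSMUSG00000038236.9, chr6:52191471-52198834), a gene of thoracic vertebral identity, stood at 950.2, 986.0 and 954.7 normalized counts in WT and at 20.7, 5.8 and 16.1 in the libraries labelled GαqKO. It fell to 1.47% of the WT mean (log2 fold change -6.15, SE 0.309, adjusted p = 7.32e-10). Its paralogue Hoxb7 (ENSMUSG00000038721.9, chr11:96177449-96180988) stood at 724.7, 720.8 and 634.1 in WT and kept 269.5, 262.5 and 283.0 in the libraries labelled GαqKO. Every one of these was below the WT libraries, but Hoxb7 remained at 39.2% of the WT mean (log2 fold change -1.35, SE 0.076, adjusted p = 2.51e-09). Hoxb8 (ENSMUSG00000056648.6, chr11:96172731-96176160), which is known for blocking the maturation of myeloid progenitors, lay between them. It stood at 841.6, 888.9 and 858.0 in WT and at 105.2, 99.4 and 93.7 in the libraries labelled GαqKO (11.5% of the WT mean, log2 fold change -3.11, SE 0.084, adjusted p = 1.48e-12). Hoxc5 was too low for a test, with 3.1, 4.9 and 7.1 in WT against 1.9, 0 and 0.

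The posterior members, numbered 9 to 13, held the highest Hox gene of the WT libraries. Hoxb9 (ENSMUSG00000020875.10, chr11:96162150-96167421), which acts with its paralogues in shaping the ribs, stood at 2796.3, 2734.6 and 2599.6 normalized counts in WT and at 308.0, 304.1 and 312.2 in the libraries labelled GαqKO. The 2 groups were each tight and far apart, at 11.4% of the WT mean (log2 fold change -3.13, SE 0.053, adjusted p = 1.87e-14). Hoxa9 (ENSMUSG00000038227.16, chr6:52200080-52208069), known for keeping blood progenitors immature, fell further. It stood at 463.6, 507.1 and 442.8 in WT and at 15.0, 22.0 and 14.1 in the libraries labelled GαqKO (3.62% of the WT mean, log2 fold change -4.73, SE 0.177, adjusted p = 3.65e-11). Its neighbour Hoxa10 (ENSMUSG00000000938.12, chr6:52208164-52217834), a gene of lumbar and uterine identity, kept more of its level. Hoxa10 stood at 810.3, 777.1 and 651.4 in WT and at 262.9, 200.0 and 249.7 in the libraries labelled GαqKO, which is 31.8% of the WT mean (log2 fold change -1.65, SE 0.108, adjusted p = 1.16e-08).

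Both tested genes of paralogue group 13, the last of each cluster, were lower. Hoxb13 (ENSMUSG00000049604.4, chr11:96085106-96088273), best known from the prostate and the tail bud, stood at 299.7, 314.7 and 302.3 normalized counts in WT and at 19.7, 28.9 and 25.2 in the libraries labelled GαqKO (log2 fold change -3.60, SE 0.166, adjusted p = 3.08e-10). Hoxc13 (ENSMUSG00000001655.7, chr15:102829538-102837249), a gene of hair and nail, stood at 28.2, 31.1 and 27.5 in WT and was listed at 0 in every library labelled GαqKO. Against a floor of 3 counts per library Hoxc13 was at least 9.64-fold lower (limma adjusted p = 4.81e-07), and it was the single member at 10 or more in each library of 1 group and at 0 throughout the other. The other genes of this paralogue group, Hoxa13 and Hoxd13, did not exceed 2.1 in any library. Hoxc10, which marks lumbar levels, stood at 6.3, 5.8 and 14.2 in WT and at 0.9, 2.3 and 4.0 in the libraries labelled GαqKO, and was too low for a test.

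**Figure D2:**
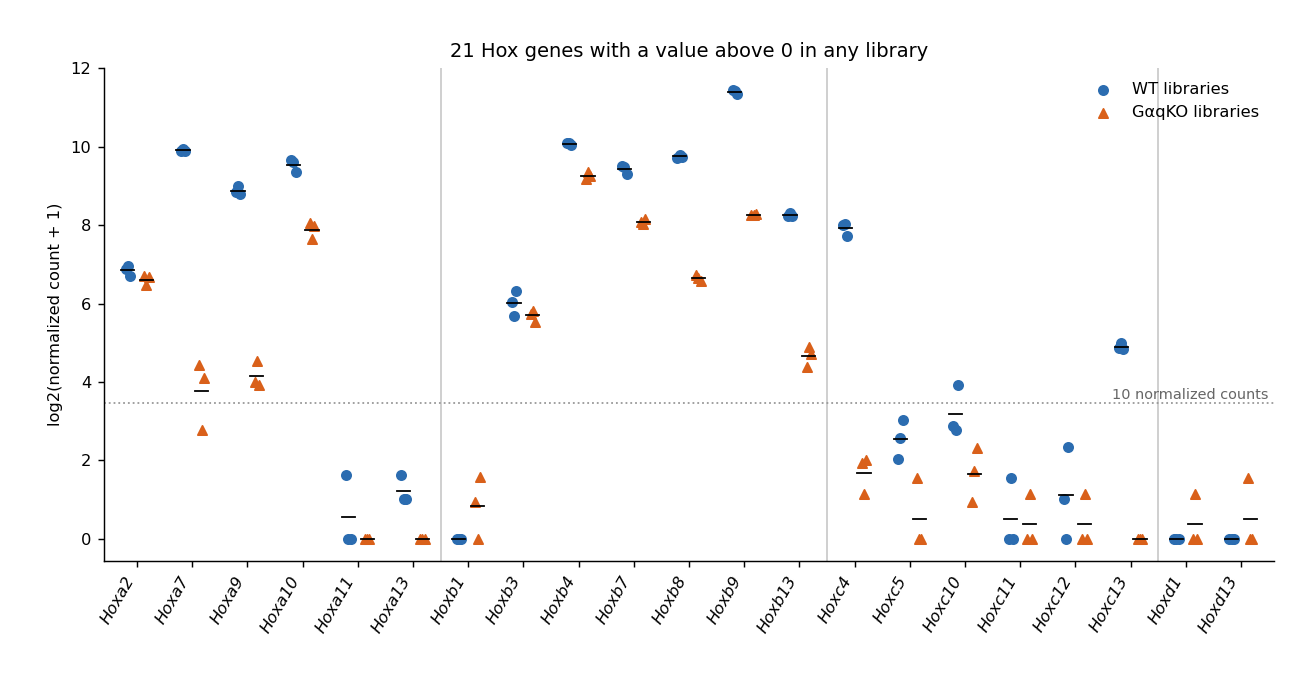
Normalized counts of 21 Hox genes above 0 in any library, on a log2(normalized count + 1) axis, with a point for each library (circles WT, triangles labelled GαqKO) and a bar at the group mean. The dotted line marks 10 normalized counts, and the groups are separated widely for Hoxa7, Hoxa9, Hoxb8, Hoxb9, Hoxb13, Hoxc4 and Hoxc13, and overlap for Hoxb3.

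Most other members were seen only in traces. Hoxa11, Hoxa13, Hoxb1, Hoxc11, Hoxc12, Hoxd1 and Hoxd13 had between 0 and 4.1 normalized counts in every library. Of these, Hoxb1, Hoxd1 and Hoxd13 were at 0 in all 3 WT libraries and reached at most 2.0 in a library labelled GαqKO. No fold is given for these genes, because at such counts a few reads decide the value.

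Levels of different members can be compared only per length of transcript, here per kilobase of merged exon. In WT, Hoxb9 led at 1001 ± 37.2 (SD, n = 3) normalized counts per kb, followed by Hoxb7 at 449 ± 33.2, Hoxb4 at 419.4 ± 9.37, Hoxa7 at 334.5 ± 6.76 and Hoxb8 at 325.1 ± 9.04. The first place was clear, whereas Hoxb7 and Hoxb4 overlapped over the libraries, as did Hoxa7 and Hoxb8. In the libraries labelled GαqKO, Hoxb4 led at 239.9 ± 15.9 per kb, followed by Hoxb7 at 175.9 ± 6.75, Hoxb9 at 113.8 ± 1.49 and Hoxa10 at 71.92 ± 10. These 4 did not overlap, and behind them Hoxa2 at 37.69 ± 3.08 and Hoxb8 at 37.46 ± 2.17 could not be ordered. Among the members with counted reads, the leading Hox transcript per kb was thus a posterior gene in WT and an anterior gene in the libraries labelled GαqKO. Members listed at 0 inside other genes' spans could not be ranked. The share of exon bases inside other spans ran from 0% for Hoxb4 to 100% for Hoxb7 and Hoxb8, and its effect on these levels was not tested.

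Summed over all 39 members, the Hox level was 8337.1 ± 313.6 normalized counts in WT (SD, n = 3) and 1773.4 ± 16.3 in the libraries labelled GαqKO, which is 21.3% of WT. By cluster, Hoxa stood at 2336.9 ± 129.5 in WT and 394.8 ± 35.8 in the libraries labelled GαqKO, and Hoxb at 5712.5 ± 166.2 and 1371.5 ± 38.0. The 2 clusters kept 16.9% and 24% of their WT sums. Hoxc was small in WT at 287.7 ± 20.6 and stood at 6.2 ± 0.8 in the libraries labelled GαqKO, or 2.14%. Hoxd was at 0 in WT and at 1.0 ± 0.9 in the libraries labelled GαqKO. These sums are descriptions without a test, since the members that fell also made up most of the sum, and the genes listed at 0 inside other genes' spans are not in them.

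**Figure D3:**
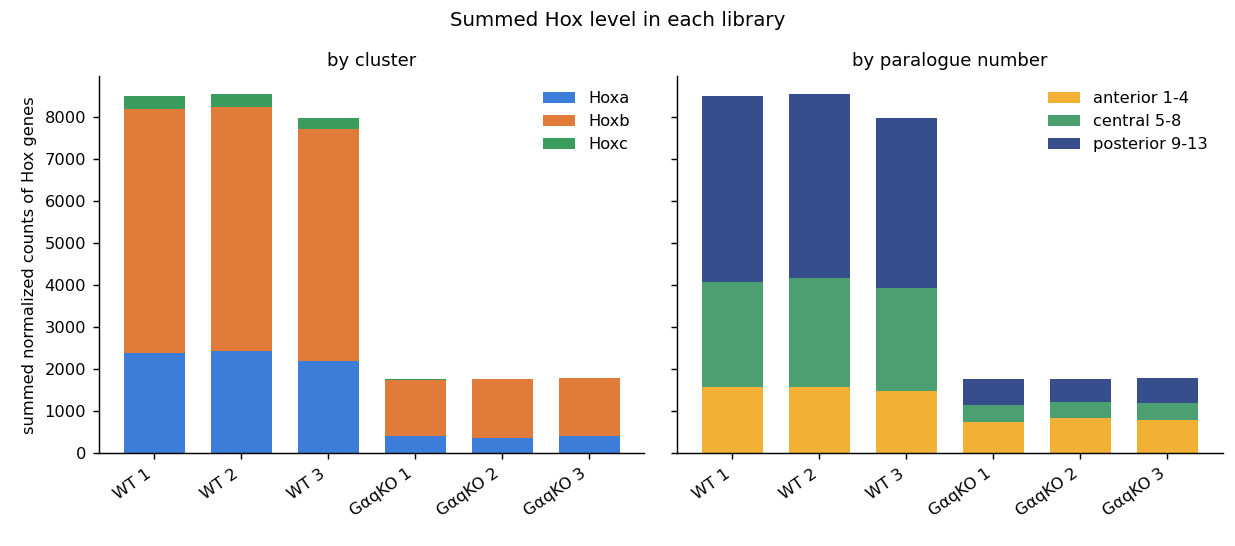
Summed normalized counts of Hox genes in each of the 6 libraries, stacked by cluster (left) and by paralogue number (right). The Hoxd cluster, at a mean of 0 in WT and 1.0 in the libraries labelled GαqKO, is too small to draw, and the 3 libraries labelled GαqKO sit at about the same total, far below the WT libraries.

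By position along the clusters, the anterior members kept the most as a sum. Their sum was 1537.1 ± 50.3 normalized counts in WT and 796.4 ± 43.9 in the libraries labelled GαqKO, 51.8% of WT. The central members kept 15.3% (2524.7 ± 73.4 against 385.9 ± 15.9) and the posterior members 13.8% (4275.3 ± 202.1 against 591.1 ± 27.3). The make-up of the Hox transcripts shifted with this, as anterior members made up 18.4 ± 0.1% of the sum in WT and 44.9 ± 2.4% in the libraries labelled GαqKO, while posterior members made up 51.3 ± 0.6% and 33.3 ± 1.5%. Much of the anterior sum is the single gene Hoxb4, and single genes did not all follow this order. The anterior gene Hoxc4 kept 0.96% of its WT mean, the central gene Hoxb7 39.2% and the posterior gene Hoxa10 31.8%. By count, 1 of 12 anterior members was lower past both thresholds, 3 of 11 central members and 5 of 16 posterior members, beside the 10.5% of all tested genes that were lower. The members tested numbered 5, 3 and 5.

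Paralogues share much of their homeobox. Across the 741 pairs of members the longest identical run between the chosen transcripts was 52 bases, between Hoxa6 and Hoxb4, and the median longest run was 15 bases. How reads were placed between paralogues was not tested.

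The promoters of 3 members that changed by different amounts are given for comparison. Each is the 250 bases before the start of the reference transcript on GRCm39. They are read 5′ to 3′ on the strand of the gene, with each CG dinucleotide in capitals. Hoxa7 and Hoxb4 stood at like levels in WT and changed by very different amounts, and Hoxb8, with a log2 fold change of -3.11, lay between them.
Hoxa7, chr6:52194486-52194735, minus strand: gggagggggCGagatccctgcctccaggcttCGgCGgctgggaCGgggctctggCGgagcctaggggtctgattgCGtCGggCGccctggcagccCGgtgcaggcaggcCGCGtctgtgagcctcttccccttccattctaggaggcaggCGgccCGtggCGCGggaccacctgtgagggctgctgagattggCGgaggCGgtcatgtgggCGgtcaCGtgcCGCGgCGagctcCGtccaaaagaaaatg
Hoxb8, chr11:96172481-96172730, plus strand: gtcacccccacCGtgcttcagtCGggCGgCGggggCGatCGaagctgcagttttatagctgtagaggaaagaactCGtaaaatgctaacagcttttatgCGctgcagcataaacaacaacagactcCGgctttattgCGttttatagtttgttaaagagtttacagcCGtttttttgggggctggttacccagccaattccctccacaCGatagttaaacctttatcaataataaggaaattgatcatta
Hoxb4, chr11:96208843-96209092, plus strand: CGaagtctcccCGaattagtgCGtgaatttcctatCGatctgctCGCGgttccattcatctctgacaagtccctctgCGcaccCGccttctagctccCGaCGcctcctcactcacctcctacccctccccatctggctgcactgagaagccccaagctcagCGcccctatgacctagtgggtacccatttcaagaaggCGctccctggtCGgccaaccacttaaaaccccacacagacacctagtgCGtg

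In these windows Hoxa7 holds 23 CG dinucleotides, Hoxb8 12 and Hoxb4 14. The median was 12 over all 39 Hox promoters and 8 over the 21664 promoters of protein-coding genes in the table. The letters TGATTNAT, a motif bound by Pbx with an anterior or central Hox protein, occurred on either strand in 3 Hox promoters (Hoxa2, Hoxb3 and Hoxb9), or 7.7%, and in 2.6% of all promoters. The letters TTTATNG, the core that posterior Hox and Cdx proteins prefer, occurred in 1 Hox promoter (Hoxb8, with 3 matches), or 2.6%, and in 9.6% of all. A match is only a description of the letters in the window.

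The clusters also hold 46 other annotated genes, mostly non-coding, of which 31 were listed at 0 and 11 were tested. Of the 46, 3 were lower past both thresholds and 0 were higher, or 6.52% lower over all 46. The 3 were among the 11 tested, and 10.5% of all genes tested were lower. Gm11538 and Mir10a, described next, reached the filter only through their WT values. Gm11538, a long non-coding gene at chr11:96093413-96098976 between Hoxb13 and Hoxb9, stood at 80.4, 74.8 and 75.3 normalized counts in WT and was listed at 0 in those labelled GαqKO, a difference of at least 25.6-fold (adjusted p = 5.17e-09). Mir10a, the microRNA gene beside Hoxb4, stood at 37.6, 46.6 and 33.6 in WT and at 4.7, 0 and 3.0 in the libraries labelled GαqKO (log2 fold change -3.81, SE 0.556, adjusted p = 3.71e-05), and the value was -3.06 without GαqKO replicate 2. Poly-A selected libraries do not hold mature microRNAs, so this is the level of reads over the gene and not of the microRNA. Gm56053, an RNA gene that lies inside exons of other genes at Hoxa2, was the third, at 31.3, 14.6 and 28.5 against 10.3, 16.2 and 8.1 (log2 fold change -1.02, adjusted p = 0.0272). Its groups overlapped, its value ran from -1.35 to -0.82 with 1 library left out, and the call was lost without WT replicate 1 or 3 or GαqKO replicate 1 or 3.

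The 5p microRNAs of the miR-10 and miR-196 families are shown, because Mir10a was lower and because miR-196 is known to repress Hoxb8. The mature sequences are from RefSeq, with the seed (bases 2 to 8) in capitals.
miR-10a-5p: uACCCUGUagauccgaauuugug
miR-10b-5p: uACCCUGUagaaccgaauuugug
miR-196a-5p: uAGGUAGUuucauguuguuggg
miR-196b-5p: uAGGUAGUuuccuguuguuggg

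miR-10a and miR-10b share the seed ACCCUGU, and miR-196a and miR-196b share the seed AGGUAGU. The genes Mir10b, Mir196a-1, Mir196a-2 and Mir196b were listed at 0 in all 6 libraries, and the same limit of poly-A selection holds for them. Each also has 100% of its exon bases inside the spans of other genes, so these genes are not reported as absent. For Mir10a this share was 0%, so their zeros cannot be set against its level. Among the other non-coding genes, Hotairm1, at the 3′ end of the Hoxa cluster, stood at 366.5, 367.2 and 385.8 normalized counts in WT and at 233.8, 240.5 and 264.8 in the libraries labelled GαqKO (log2 fold change -0.60, SE 0.084, adjusted p = 2.53e-05). Gm53, in the Hoxb cluster, was higher at the adjusted p alone, with 231.8, 240.9 and 250.4 against 442.3, 437.1 and 473.3 (log2 fold change 0.90, SE 0.079, adjusted p = 2.33e-07). Hotair, of the Hoxc cluster, had 0, 0 and 1.0 in WT and 6.6, 4.6 and 2.0 in the libraries labelled GαqKO and was not tested. The antisense genes Hoxb5os and Hoxb3os did not pass the test (log2 fold changes -0.26, interval -0.60 to 0.09, and 0.22, interval -0.04 to 0.48). The strand setting of the authors' counting is not given in the sources used here, so a gene and its antisense partner may share reads.

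Protein-coding genes on either side of the clusters were read in the same way. Of the 49 protein-coding genes within 500 kb of a cluster, 34 were tested, 3 were lower past both thresholds and 1 was higher. These are 6.12% and 2.04% of all 49, tested or not, beside 10.5% and 10.2% of all genes tested. Skap1, an adaptor of T cell adhesion that lies on the 3′ side of Hoxb, stood at 163.9, 156.4 and 190.3 normalized counts in WT and at 30.0, 49.7 and 32.2 in the libraries labelled GαqKO (log2 fold change -2.19, SE 0.198, adjusted p = 3.37e-07). Beside Hoxc, Prr13 (log2 fold change -1.27, adjusted p = 4.51e-08) and Gtsf2 (-1.65, adjusted p = 5.86e-05) were lower, and Amhr2, the receptor of anti-Müllerian hormone, rose from at most 10.7 to at least 32.9 normalized counts (log2 fold change 1.86, adjusted p = 4.69e-05). In WT, Amhr2 stood at 9.4, 10.7 and 9.2, so it entered the test only through the libraries labelled GαqKO.

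At the adjusted p alone, 22 of the 34 tested flanking genes were lower and 4 were higher, beside 34.1% and 31.8% of all genes tested. Of the 22, 13 lay beside Hoxc, where 18 of the 34 tested genes also lay. Beside Hoxb, 7 of 11 tested genes were lower. Over the tested flanking genes the median log2 fold change was -0.65 beside Hoxc, -0.22 beside Hoxb and 0.11 beside Hoxa. Over whole chromosomes it was 0.16 on chromosome 15, which holds Hoxc, -0.11 on chromosome 11, which holds Hoxb, and 0.06 on chromosome 6, which holds Hoxa. Evx1 and Evx2, the homeobox genes next to the 5′ ends of Hoxa and Hoxd, were listed at 0 in every library.

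**Figure D4:**
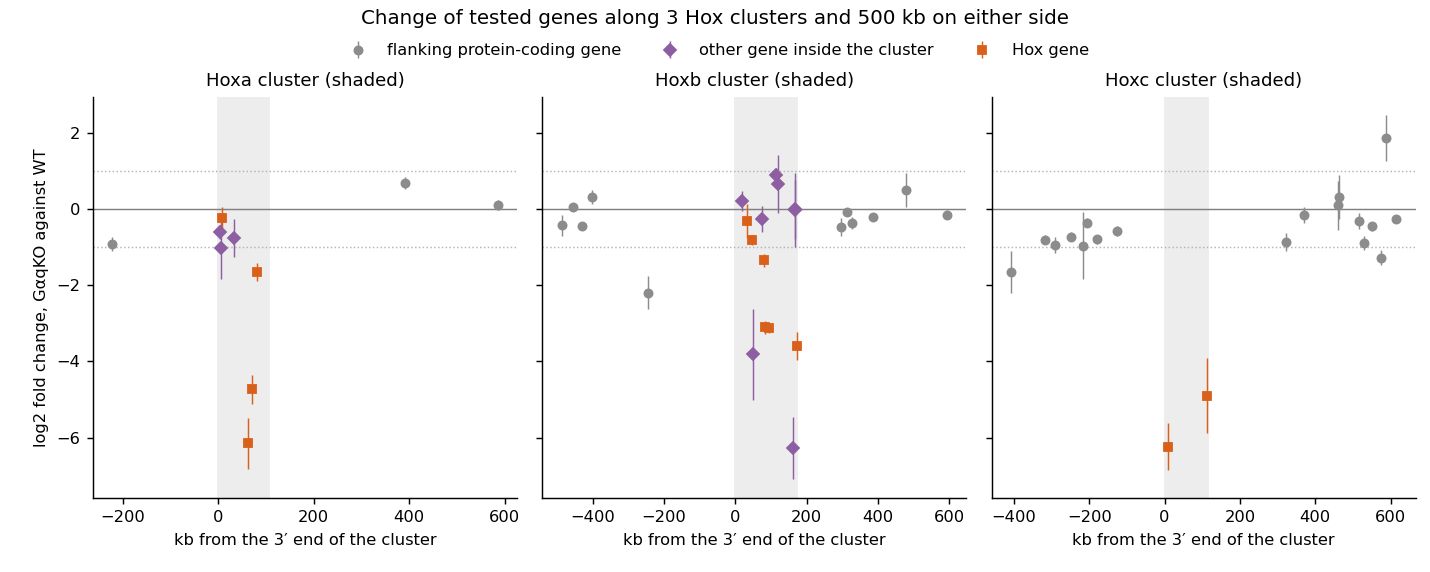
Log2 fold change of tested genes (libraries labelled GαqKO against WT, with limma's 95% confidence interval as a bar) against their distance in kb from the 3′ end of the Hoxa, Hoxb and Hoxc clusters. Squares are Hox genes, diamonds other genes inside the cluster, circles protein-coding genes within 500 kb, and dotted lines mark -1 and 1. The squares at the 3′ end of Hoxa and Hoxb sit between -0.31 and -0.24 and those further in reach -6.15 in Hoxa and -3.60 in Hoxb. In Hoxc the square nearest the 3′ end, Hoxc4, is at -6.24 and Hoxc13 at the 5′ end is at a fitted -4.90, while flanking genes stay between -2.19 and 1.86.

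Of the 11 TALE genes, which encode DNA-binding partners of Hox proteins, 4 were lower past both thresholds and 1 was higher, or 36.4% and 9.09%, beside 10.5% and 10.2% of all genes tested. Pbx4 stood at 144.1, 130.2 and 154.7 normalized counts in WT and at 31.0, 34.7 and 33.2 in the libraries labelled GαqKO (log2 fold change -2.08, SE 0.165, adjusted p = 8.8e-08). Meis3 and Pknox2 were sparse, and their values ran widely when 1 library was left out, from -1.20 to -0.71 for Meis3 (log2 fold change -1.02, adjusted p = 0.00401) and from -3.70 (without GαqKO replicate 2) to -1.88 (without GαqKO replicate 3) for Pknox2 (log2 fold change -2.90, adjusted p = 0.0022). Pknox2 entered the test through its WT values of 24.0, 36.9 and 30.5, against 4.7, 11.6 and 0 in the libraries labelled GαqKO. The call of Meis3 was lost without WT replicate 2 or 3 or GαqKO replicate 2.

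Meis2, which acts with Hox proteins in the limb and trunk, moved the other way. It stood at 572.2, 560.5 and 482.5 normalized counts in WT and at 1461.1, 1466.1 and 1433.0 in the libraries labelled GαqKO (log2 fold change 1.44, SE 0.066, adjusted p = 2.95e-10). At the adjusted p alone 7 TALE genes were lower, 3 were higher and 1 did not pass, beside 34.1% and 31.8% of all genes tested.

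Genes that set the state of Hox chromatin were read in 2 lists. Of 29 Polycomb genes 27 were tested, 1 was higher and 0 were lower past both thresholds (3.45% and 0%, beside 10.2% and 10.5% of all genes tested), and 7 were higher and 9 lower at the adjusted p alone by limma, beside 31.8% and 34.1% of all genes tested. The 1 gene was Phf19, a Polycomb-like protein that recruits the H3K27 methyltransferase to chromatin, at 524.2, 563.4 and 576.1 normalized counts in WT and 1742.8, 1826.9 and 1753.2 in the libraries labelled GαqKO (log2 fold change 1.68, SE 0.055, adjusted p = 9.64e-12). Of 13 genes of the Trithorax group and the H3K27 demethylases, 1 was lower and 0 were higher past both thresholds (7.69% lower, near the 10.5% of all genes tested), and 4 were lower and 4 higher at the adjusted p alone, beside 34.1% and 31.8% of all genes tested. That gene was Kdm6b, which encodes a demethylase that removes the Polycomb mark, at 1202.9, 1272.6 and 1456.5 in WT and 498.6, 526.1 and 543.8 in the libraries labelled GαqKO (log2 fold change -1.32, SE 0.071, adjusted p = 1.53e-09). The files hold no chromatin measurement, so whether the mark itself differed was not tested.

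**Figure D5:**
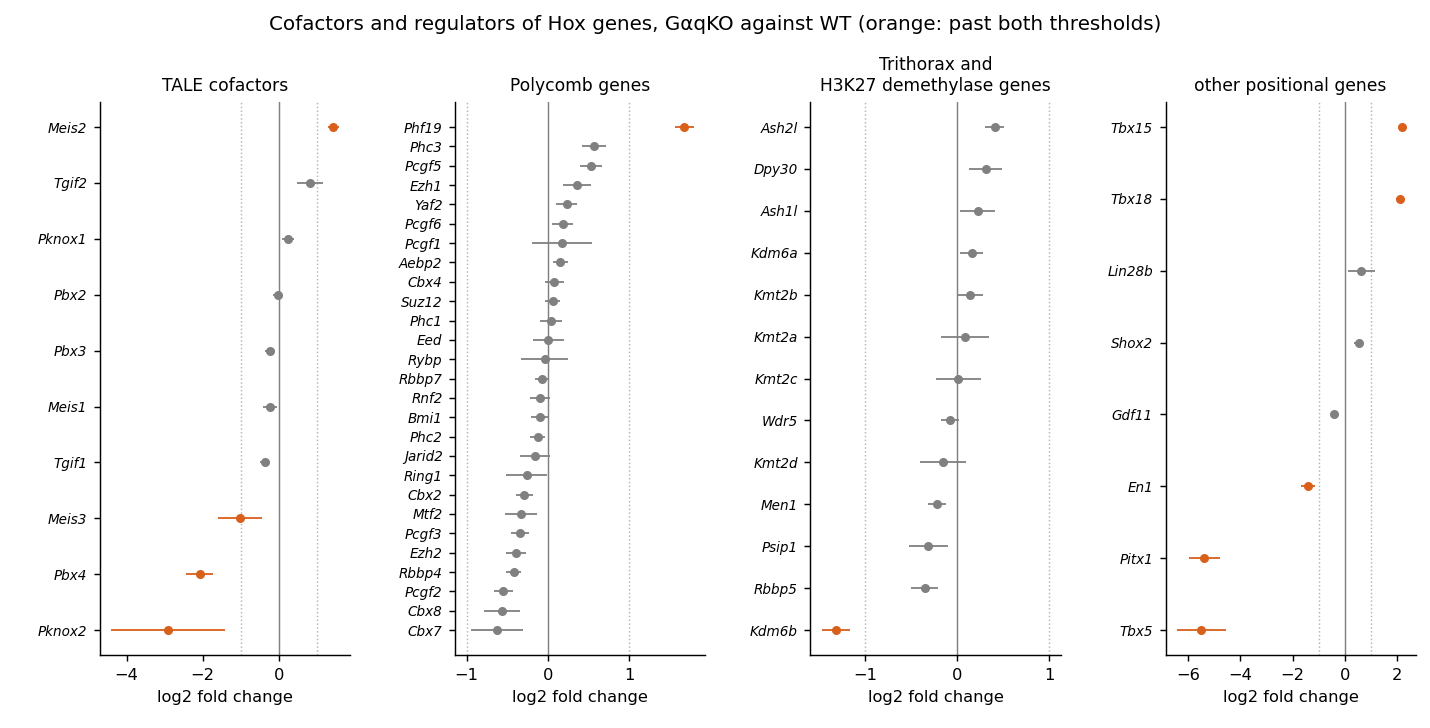
Log2 fold changes (libraries labelled GαqKO against WT, with limma's 95% confidence interval) of tested genes of 4 lists, the TALE cofactors, Polycomb genes, Trithorax and H3K27 demethylase genes, and other positional genes. Orange marks genes past both thresholds and dotted lines mark -1 and 1, with Phf19 at 1.68 and Kdm6b at -1.32 the single orange points of the 2 chromatin lists.

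A list of 21 other genes of positional identity (limb, face, tail and timing factors) gave changes in both directions. Of the 21, 8 were tested, and 3 of these were lower and 2 higher past both thresholds. These are 14.3% and 9.52% of all 21, tested or not, beside 10.5% and 10.2% of all genes tested. Tbx5 of the forelimb (log2 fold change -5.49), Pitx1 of the hindlimb (-5.37) and En1 of the ventral limb ectoderm and of dermal lineages (-1.42) were lower, and the mesenchymal T-box genes Tbx15 (2.17) and Tbx18 (2.10) were higher. Tbx5 and Pitx1 ran from 76.3 to 86.7 and from 255.5 to 273.8 normalized counts in WT and did not exceed 2.3 and 9.1 in the libraries labelled GαqKO. These 2 genes therefore entered the test only through their WT values. Cdx1, Cdx2 and Cdx4, which activate central and posterior Hox genes in the embryo, did not exceed 9.7 in any library.

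Because Hox levels follow the origin of a fibroblast, markers of cell types were read beside them. The summed 16 fibroblast markers ran from 98538 to 104705 normalized counts in WT and from 83556 to 86918 in the libraries labelled GαqKO. Vim was the largest part of these sums, with means of 41784.9 in WT and 33507.6 in the libraries labelled GαqKO. The sums therefore do not speak for every marker. Of the 16, 6 were higher and 2 lower past both thresholds (37.5% and 12.5%, beside 10.2% and 10.5% of all genes tested). The 6 higher ones were Pdgfra, Thy1, Dcn, Prrx1, Twist2 and S100a4. The 2 lower ones were the collagen genes Col1a1 and Col5a1, with log2 fold changes of -1.53 and -1.55. Pdgfra, a defining fibroblast receptor, stood at only 21.9, 17.5 and 19.3 in WT and at 2328.8, 2356.4 and 2273.9 in the libraries labelled GαqKO. Dcn had means of 32.1 in WT and 1662.8 in the libraries labelled GαqKO, and Thy1 had 0.7 and 64.9. Thy1 therefore entered the test only through the libraries labelled GαqKO. Lum did not exceed 4.0 in any library. Of 6 epithelial markers 2 were lower (33.3%, beside 10.5% of all genes tested), Cdh1 and Krt14. They were the only 2 tested, and both entered the test through their WT values. In the libraries labelled GαqKO, Cdh1 stood at 8.5, 10.4 and 5.0 and Krt14 at 0, 2.3 and 1.0. The epithelial sum ran from 515.0 to 540.9 in WT and from 10.1 to 23.1 in the libraries labelled GαqKO. Of 5 neural markers 2 were lower (40%, beside 10.5% of all genes tested), Nes and Tubb3. Their sum over all 5 ran from 7565.5 to 8062.4 in WT and from 945.8 to 974.8 in the libraries labelled GαqKO. Sox10 did not exceed 1.0 in any library. Sox2 was listed at 0, but its exons lie wholly inside the span of other genes, so it is not reported as absent. The summed 4 haematopoietic markers ran from 288.2 to 331.8 in WT and from 1352.8 to 1386.7 in the libraries labelled GαqKO. This rise came through Cd34, which was higher past both thresholds (25% of the 4, beside 10.2% of all genes tested). Cd68 went the other way, at 84.6, 103.9 and 90.6 in WT and 54.5, 79.8 and 66.5 in the libraries labelled GαqKO. It was lower at the adjusted p alone (log2 fold change -0.48, limma adjusted p = 0.0296). Ptprc, which marks blood cells, did not exceed 3.1 in any library, and Adgre1 did not exceed 6.9. The 4 endothelial and 4 skeletal muscle markers summed to at most 25.4 and 18.5 in any library. Several of these markers thus also differed between the lines, in both directions, and their part in the Hox result was not tested. In bulk libraries, fewer cells with a transcript and less of it per cell cannot be told apart.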

How the data were processed

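RNA of 3 WT and 3 GαqKO MEF cultures was poly-A selected, prepared with a stranded kit and sequenced as paired reads of 150 bases. The authors aligned reads to GRCm39 with Rbowtie2, counted them with featureCounts on GENCODE release 32 and normalized with DESeq2. Versions, strand setting, low-count filters and the treatment of overlapping genes are not given in the sources used here. The deposited values are normalized counts, a signal per gene, not raw counts. In 5 libraries 100.0% of values were whole multiples of 1 read (tolerance 0.05), giving 9853000 to 12229175 reads. The sixth, GαqKO replicate 3, was not accepted by that check, so edgeR 4.0.16 and DESeq2 1.42.0 were run on 5 libraries as alternatives.

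Symbols and coordinates came from GENCODE release 39 on GRCm39, which matched 56310 of 56953 identifiers (643 did not match). The main test was limma 3.58.1 on log2(normalized count + 1) in R 4.3.3, with its trend option and adjustment by Benjamini-Hochberg over 14096 genes that reached 10 normalized counts in 3 or more libraries, and the thresholds are those of the study's methods. Intervals are limma's 95% intervals, and exact intervals and the floor of 3 counts cover counting error only. Same-numbered WT and GαqKO libraries did not deviate together (correlations -0.045, -0.148 and -0.064), so replicate numbers were not used as pairs. The 4 pairs of libraries within a group that had recovered reads differed by more than sampling noise (chi-square per gene 2.44 to 5.5), and GαqKO replicate 3 was not compared. Scripts were tested on simulated data.

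The members, lists and named genes were chosen with earlier results of these data known. Named in full are Hox genes past both thresholds, among the 5 highest per kb in either group, or at 0 in 1 group and at 10 or more in each library of the other. In the other lists these are genes past both thresholds with a mean of at least 10, at most 5 a list, and the remaining genes given with values were added after their values were seen. Some genes and sequences are not reported here, though the genes stay in the counts and sums.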

Additional observations from a re-analysis of the deposited data

How the results depend on the processing

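The alternatives covered the scaling, the pseudocount, the filter, the prior spread, limma's treat test, a replicate block, the chromosome median, each library left out, and edgeR and DESeq2 on recovered reads of 5 libraries. The 9 Hox genes remained lower under each of them, edgeR and DESeq2 included, except with at least 10 normalized counts required in every library, where 6 were left, since Hoxa7, Hoxc4 and Hoxc13 were then not tested and Hoxc had 0. Without a filter there were 10, adding Hoxc5. With the replicate block the number was 9, and the block changed no count of Hox genes, while Gm56053 lost its call and other genes inside the clusters had 2 lower in place of 3. That list also had 2 lower with a pseudocount of 5, without a filter, without the trend in the prior spread, with treat, and by edgeR and DESeq2. No result reversed. With treat, TALE genes numbered 2 lower in place of 4. Without a filter, Polycomb had 2 higher, flanking genes 5 lower and other genes inside the clusters 1 higher. With at least 10 in every library, flanking genes had 0 higher, other genes inside the clusters 0 lower and other positional genes 1 lower. With the chromosome median removed, flanking genes had 6 lower and genes inside the clusters 1 higher. With 1 library left out, flanking genes had 3 to 5 lower, and the 5 came without GαqKO replicate 2. Per kb, the summed level in the libraries labelled GαqKO was 18.4% of WT for Hoxa, 25.1% for Hoxb and 22.8% for all Hox genes. In normalized counts it was 20.8% over members with at least 50% of their exons outside other exons. Of single genes, 19 values lost their call, all of Meis3, Pknox2, Gm56053 or Gtsf2, and the Gm53 log2 fold change gained one at 1.01 with the chromosome median removed. The cause of these changes beyond the filters was not tested. Depth limits the members under 10 normalized counts, where a few reads decide a value.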
